A study of Mus musculus with 4 samples.

Results

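The aminoacyl-tRNA synthetases are the enzymes that join each amino acid to its transfer RNA (tRNA). Their transcripts were compared between stomachs of wild type (WT) mice and of Atp4b-cre;MycOE mice, which the sample labels call MYC-KI and which are called c-Myc transgenic below. Members were taken by name. They are all rows of the count table whose whole name is 1 amino acid letter followed by ars, with or without 1 or 2 at the end, together with Eprs, Farsa, Farsb and Tarsl2. The rule found 38 of 46095 rows, of which 21 are named for cytosolic enzymes and 17, ending in 2, for mitochondrial ones (Tarsl2 was counted as cytosolic). The rule itself uses names only.

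Cells need 1 synthetase activity for each amino acid, because the ribosome reads only the tRNA and cannot correct a wrongly charged one. The enzymes fall into 2 structural classes, I and II, which attach the amino acid to the tRNA end in different ways. Animal cells keep a set for the cytosol and a set, also encoded in the nucleus, for protein synthesis inside mitochondria. Gars and Kars each encode both forms, and cytosolic Qars has no mitochondrial counterpart, because mitochondria charge that tRNA with glutamate through Ears2 and then convert it. Of the cytosolic enzymes, 8 are held with 3 scaffold proteins in the multisynthetase complex. In the stomach, chief cells make large amounts of secreted pepsinogen and parietal cells are packed with mitochondria, so both depend on these enzymes. MYC is known as an activator of genes for protein synthesis, and the transcription factor ATF4 activates several cytosolic synthetase genes when amino acids run short.

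The study sequenced gastric RNA of 12-week-old C57BL/6 mice, 2 WT and 2 c-Myc transgenic. In the transgenic mice, a floxed human c-Myc transgene (Atp4b-cre; Myc fl/+) was switched on by Cre under control of Atp4b, a gene of parietal cells. The WT mice were Myc fl/fl littermates, which carry the silent transgene without Cre. The samples are stomach tissue with all its cell types, so fewer cells of a type and less RNA per cell cannot be told apart. The libraries held 30260305 to 41463647 counts, and nothing in the labels ties samples with the same number to a shared litter or day. The 2 samples of each genotype lay further apart than counting alone gives (chi-square per degree of freedom 22.7 for WT and 74.9 for transgenic), and p-values measure only the spread between these 4 samples.

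The table as deposited pairs names and counts differently in the 2 genotypes. Its names are sorted without regard to case, while the transgenic counts were inferred, from the correlations given here, to follow the same names sorted by character code, with capitals first. The counts of both transgenic columns were therefore assigned, in row order, to the names in that second order. The re-sorting itself uses names only, the WT columns stayed as they were, and all values below rest on this inference, apart from the counts of Eprs and Ears2. Taken over all rows, as a description, Pearson's r between the genotypes' mean log2(count + 1) was 0.524 as deposited and 0.985 after the assignment. Among the synthetases r was 0.316 before and 0.963 after. In the 60 rows around each synthetase it lay between 0.877 and 0.995 after the assignment, with a median of 0.981, against a median of 0.034 before. As deposited, 7 synthetase rows (Aars, Kars, Lars, Lars2, Vars, Vars2 and Wars2) have 0 counts in both transgenic columns. After the assignment no synthetase row is at 0 in any sample. Of the members, only Eprs and Ears2 keep their place when the names are re-sorted, so their counts do not depend on it. All values below are from the re-sorted table.

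**Figure D1:**
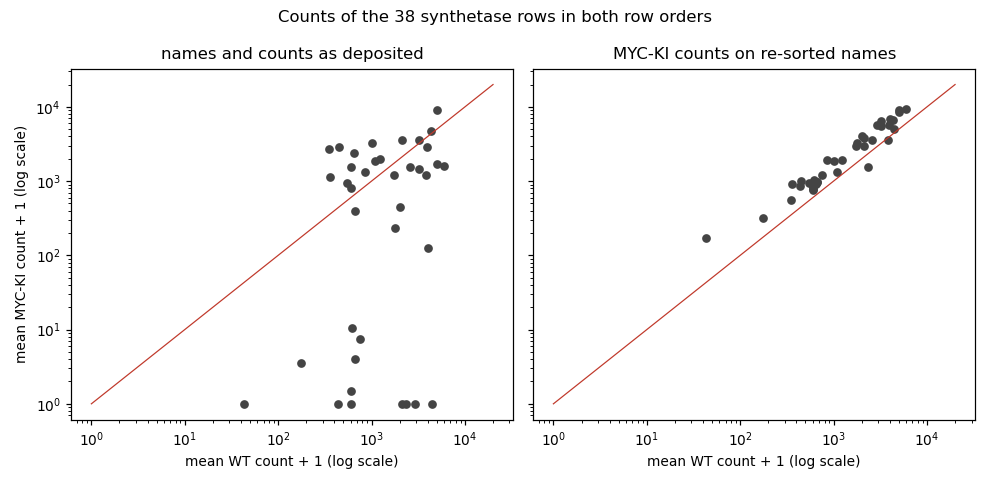
Mean count + 1 of each of the 38 synthetase rows in WT (horizontal axis) and c-Myc transgenic mice (vertical axis), both on log scales, with the deposited pairing at left and the re-sorted pairing at right; the red line marks equal counts. At left 7 points lie at 0 transgenic counts, and at right the points follow the line with an r of 0.963.

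Samples of the same genotype also differed in the tissue they held. Squamous markers, of the forestomach, summed to 2683 and 1532 normalized CPM (defined below) in WT and to 1039 and 4626 in transgenic replicates 1 and 2, and the skeletal muscle gene Acta1 had 49.2 and 35.2 in WT and 1.5 and 516 in transgenic mice. WT replicate 2 had 17846 counts of Xist and the other samples 85 to 201, so the sex this gene marks differs within WT. The Myc row, named for the mouse gene, held 1062 and 759 counts in the WT samples and 735 and 1091 in the transgenic ones. Whether reads of the human transgene were counted there was not tested, so this row does not check the labels. Calls without each sample are given with the results.

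Stretches of DNA at the synthetase gene starts are shown first, because motifs for MYC and for ATF4 were searched there. RefSeq windows of 300 bases (250 before and 50 after the annotated start, build GRCm38.p6, the same assembly as mm10 in the labels) were matched for 28 of the 38 genes. The motif CACGTG, the E-box bound by MYC and its relatives, was searched on both strands and was in the windows of 5 genes (17.9%), Aars, Ears2, Farsb, Iars and Tars. It was in 7.15% of all 32851 windows. The motif TGATGCAA, a core of the amino acid response element bound by ATF4 with a C/EBP factor, was in the windows of 4 genes (14.3%), Aars, Iars, Tars and Yars, against 0.895% of all windows. A synthetase gene was counted if any of its windows held the motif, while the shares of all windows count each window, so the measures differ. The motifs do not overlap in any of these windows. A match describes letters only and does not show that a factor binds. Of the genes that hold both motifs, Iars and Tars are shown as 30 bases around each match, read 5′ to 3′ on the gene's strand, with the match in capitals (TTGCATCA is TGATGCAA on the other strand).
Iars E-box, chr13:49682049-49682078, + strand: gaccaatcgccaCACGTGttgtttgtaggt
Iars amino acid response motif, chr13:49682126-49682155, + strand: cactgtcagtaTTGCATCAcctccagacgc
Tars E-box, chr15:11399622-11399651, - strand: tccgcctgtggcCACGTGgcgcacgcgcag
Tars amino acid response motif, chr15:11399655-11399684, - strand: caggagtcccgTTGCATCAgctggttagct

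The 160 bases before the start are shown for 3 more genes, with any E-box in capitals. Farsb holds an E-box 39 bases before its start. Mars2 had the largest rise among the called genes and Vars2 was the name of the row called lower, whose counts may belong to another locus, as described with the Vars row. The windows of Mars2 and Vars2 hold neither motif.
Farsb, chr1:78488898-78489057, - strand: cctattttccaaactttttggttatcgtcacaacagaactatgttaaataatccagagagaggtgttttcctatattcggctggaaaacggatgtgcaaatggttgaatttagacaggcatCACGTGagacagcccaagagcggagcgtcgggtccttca
Mars2, chr1:55237017-55237176, + strand: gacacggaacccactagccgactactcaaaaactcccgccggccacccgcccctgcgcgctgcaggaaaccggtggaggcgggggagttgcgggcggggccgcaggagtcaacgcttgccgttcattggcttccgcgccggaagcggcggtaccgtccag
Vars2, chr17:35667593-35667752, - strand: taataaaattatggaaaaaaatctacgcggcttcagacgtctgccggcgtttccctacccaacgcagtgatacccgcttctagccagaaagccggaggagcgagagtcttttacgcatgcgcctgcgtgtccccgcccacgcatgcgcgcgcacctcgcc

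Most synthetase genes had more transcript in c-Myc transgenic stomach, by a modest amount. Values are CPM, which are counts scaled to a common library total, after TMM normalization (normalized CPM). A call required an adjusted p under 0.05 from edgeR's quasi-likelihood test and a change of more than 1.5 times in either direction. All 38 genes passed edgeR's filter on low counts. By these thresholds 6 genes rose (Qars, Kars, Rars, Tars2, Mars2 and Wars2), which is 15.8% of the 38 against 5.65% of all 17643 genes tested. Only Vars2 fell, which is 2.63% against 5.08% of all genes. A further 6 genes with higher values (Eprs, Farsa, Farsb, Iars, Sars and Hars) and 1 with a lower value (Iars2) had an adjusted p under 0.05 but a change under the fold threshold. With these the numbers were 12 higher (31.6%, against 6.98% of all genes) and 2 lower (5.26%, against 5.91%).

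In 29 of the 38 genes (76.3%) both transgenic samples lay above both WT samples, against 33.3% of all genes, and in 3 (7.89%, against 31.5%) both lay below. The median log2 fold change was 0.38 over the synthetases, whose median SE was 0.11, and 0.01 over all genes. Of all genes tested, 25.4% had a log2 fold change at or above the synthetase median. Before any normalization, synthetase counts made up 0.224% and 0.214% of all counts in WT replicates 1 and 2 and 0.316% in each transgenic sample.

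The calls rest on both WT samples. Without WT replicate 1 or without WT replicate 2, edgeR called 0 synthetases and 0 genes in the whole table in either direction, although 17 synthetases still had an unadjusted p under 0.05 in each case, 15 of them higher. Among all genes 3554 and 3410 had such a p. Without transgenic replicate 1 the calls of Mars2 and Wars2 were lost. Without transgenic replicate 2 those of Kars, Rars and Wars2 were lost, and Farsa, Farsb and Lars2 were called higher instead. The normalization matters as well, since scaling by library size alone raised the median of all genes to 0.23 and called 17 synthetases higher and 1 lower. Among all genes that scaling moved the share of higher calls from 52.6% to 75.5%, and every change below is relative to the TMM scale.

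**Figure D2:**
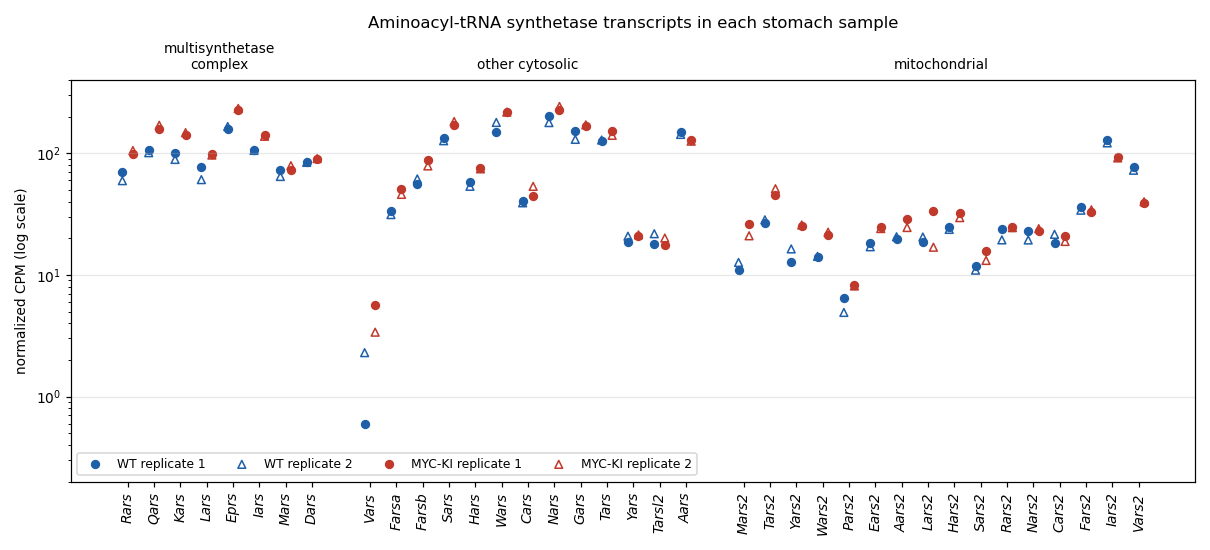
Normalized CPM (log scale) of 37 synthetase genes in the 2 WT samples (blue) and the 2 c-Myc transgenic samples (MYC-KI, red), with circles for replicate 1 and triangles for replicate 2. Genes are ordered within each group by fold change, and in 28 of the 37 both red symbols lie above both blue ones.

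Per length of exon, the highest levels in WT belonged to cytosolic enzymes. Levels were divided by the exonic length of each gene in GENCODE M21 (GRCm38), which counts every annotated isoform and so understates genes with long minor exons. Wars, the tryptophanyl enzyme, had 43.7 and 52.0 normalized CPM per kb in WT, Gars, the glycyl enzyme, 48.8 and 41.7, and Nars, the asparaginyl enzyme, 46.9 and 41. The WT samples of these 3 genes overlap, so their order is not resolved, and they also led in transgenic mice, where Wars was highest with 63.4 and 63.2. Next in WT came Sars with 25.9 and 24.6 and then 10 more cytosolic genes with means between 22.9 (Hars) and 15.7 (Aars). Among these, Dars (19.4 and 19.3) lay above Qars (16.3 and 15.4) in both samples, while Qars and Aars (16.0 and 15.4) overlapped.

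The highest mitochondrial genes in WT were Iars2 (14.4 and 13.7) and Vars2 (14.2 and 13.3), and below these the cytosolic and mitochondrial genes were intermixed, with Lars, Eprs, Farsa, Cars, Yars, Tarsl2 and Vars as the cytosolic ones. Mars2, the mitochondrial methionyl enzyme and a gene of 1 exonic block of 11294 bases, was second from the bottom with 0.979 and 1.12. Of the 14 pairs of a cytosolic and a mitochondrial gene for the same amino acid, the cytosolic gene had the higher level per kb in 12 in both genotypes, by 1.43 (Iars) to 20.2 times (Wars) in WT. The exceptions were Yars and Vars.

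The Vars row held only 20 and 64 counts in the WT samples and 192 and 151 in the transgenic ones, or 0.106 and 0.409 normalized CPM per kb in WT, the lowest of all members. Valyl-tRNA synthetase of the cytosol is an essential enzyme of every cell. RefSeq lists Vars2 as an older name of this same gene as well as the current name of the mitochondrial enzyme. It cannot be told from these counts which locus the Vars2 row counts, and the values of both rows are given under their printed names. Without both rows the median log2 fold change of the other 36 members was 0.38 as well.

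The multisynthetase complex brings together the glutamyl-prolyl, isoleucyl, leucyl, methionyl, glutaminyl, lysyl, arginyl and aspartyl enzymes. All 8 had a log2 fold change above 0, with a median of 0.51, against 50.9% of all genes above 0, and 3 rose, against 5.65% of all genes called higher. Summed over the 8 genes, the level went from 776 and 729.7 normalized CPM in WT to 1028 and 1059.9 in transgenic mice, a ratio of 1.39. Values that are summed over genes carry no test here.

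Qars, the glutaminyl enzyme (chr9:108507706-108515941), had 107 and 101.0 normalized CPM in the WT samples and 158 and 169.8 in the c-Myc transgenic ones. The genotypes did not overlap, and the fold change was 1.58 (log2 fold change 0.66, SE 0.09, adjusted p = 0.0268). Rars, the arginyl enzyme (chr11:35808381-35834506), had 69.8 and 59.5 in WT and 99.1 and 105 in transgenic mice. It rose by the same 1.58 times (0.66, SE 0.11, adjusted p = 0.0363), and its WT samples lay further apart than its transgenic ones.

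Kars, which encodes both the cytosolic and the mitochondrial lysyl enzyme (chr8:111993443-112011323), had 100.6 and 88.9 in WT, against 140.2 and 148 in transgenic mice. Its change of 1.52 times lay just inside the fold threshold (log2 fold change 0.60, SE 0.10, adjusted p = 0.0350). Without WT replicate 2 it was 0.51 and without transgenic replicate 2 it was 0.57, both outside. The lysyl pseudogene row Kars-ps1 had 0 counts in all 4 samples after the assignment, so it took no reads from Kars.

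Eprs, a fused enzyme that charges both glutamate and proline tRNAs, had 158 and 166 normalized CPM in WT and 227 and 233 in transgenic mice. Because its row keeps its place when the names are re-sorted, its counts do not rest on the re-sorting, although the scaling and the test do (log2 fold change 0.51, SE 0.08, adjusted p = 0.0335, under the fold threshold). Iars, the isoleucyl enzyme with both motifs at its start, had 106 and 105 in WT and 142 and 138 in transgenic mice (0.40, SE 0.07, adjusted p = 0.0425). In both genes the replicates differed by far less than the genotypes.

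Lars, the leucyl enzyme, had 76.4 and 60.6 normalized CPM in WT and 99.4 and 96.6 in transgenic mice (log2 fold change 0.51, SE 0.13, adjusted p = 0.0773). It did not pass, and its WT samples were the most spread of the complex. Mars (0.14, SE 0.10, adjusted p = 0.388) overlapped between the genotypes, and Dars (0.09, SE 0.07, adjusted p = 0.425) had 84.5 and 84.1 in WT and 89.4 and 90.4 in transgenic mice. Among the members of the complex, whose proteins assemble together, the fold changes thus ran from 1.07 for Dars to 1.58 for Qars and Rars, and differences between members were not tested.

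The 3 scaffold proteins of the complex were read as well. Eef1e1 had 13.1 and 16.2 normalized CPM in WT and 28.8 and 30.4 in transgenic mice and rose by 2.02 times (log2 fold change 1.02, SE 0.15, adjusted p = 0.0324). Aimp2 had 19.8 and 16.7 in WT and 30.2 and 27.2 in transgenic mice (0.65, SE 0.15, adjusted p = 0.0579), and Aimp1 had 41.8 and 38 against 56.6 and 53.3 (0.46, SE 0.10, adjusted p = 0.0505). Neither passed in edgeR, although the genotypes did not overlap, and DESeq2 called Aimp2 higher.

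**Figure D3:**
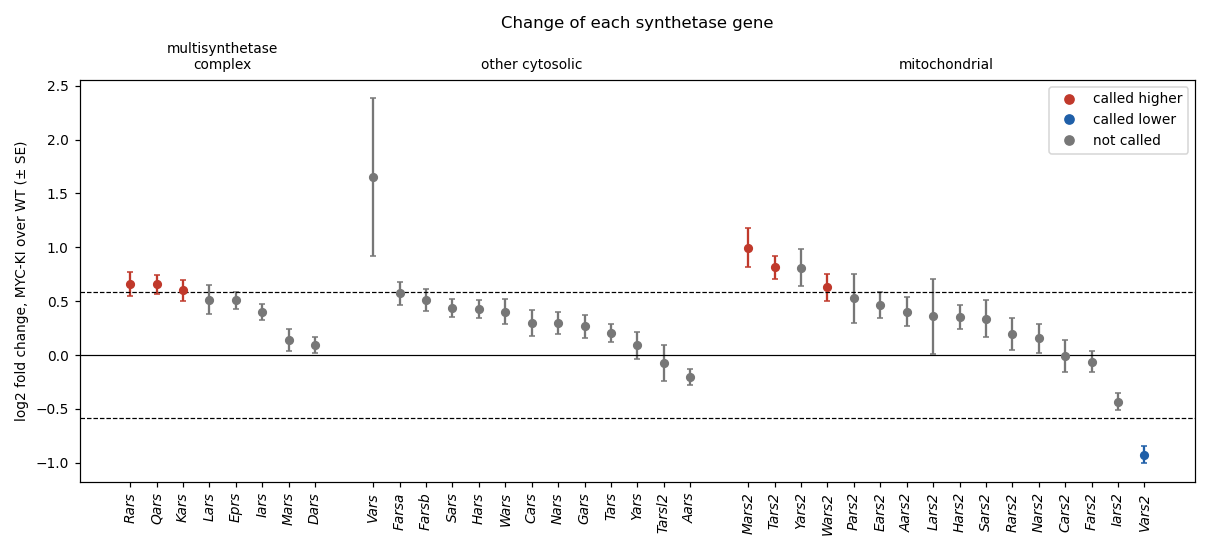
Log2 fold change of 37 synthetase genes in c-Myc transgenic over WT stomach with its SE, in the multisynthetase complex, the other cytosolic genes and the mitochondrial genes. Dashed lines mark the fold threshold of 1.5 times. The 6 genes called higher (red) are 3 of the complex and 3 mitochondrial ones, and Vars2 (blue) is the gene called lower.

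Of the 13 rows named for cytosolic synthetases outside the complex (the Vars2 row, whose locus is in doubt, not among them), 0 were called by edgeR or by DESeq2 in either direction, against 5.65% and 5.08% of all genes in edgeR. In edgeR 6 had an unadjusted p under 0.05, all with higher values, against 6024 of all 17643 genes in either direction. Over the 13 rows the median log2 fold change was 0.30, 11 of the 13 values were above 0 (50.9% of all genes), and in 10 both transgenic samples lay above both WT samples (33.3% of all genes). Their summed level went from 1140.2 and 1116 to 1368 and 1377 normalized CPM, a ratio of 1.22. Leaving the row Vars aside, values ran from -0.20 for Aars to 0.57 for Farsa.

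Phenylalanyl-tRNA synthetase is built of 2 subunits, both of which had an adjusted p under 0.05. Farsa, the alpha subunit, had 33.6 and 31.3 normalized CPM in WT and 50.6 and 45.9 in transgenic mice (log2 fold change 0.57, SE 0.10, adjusted p = 0.0401). Farsb, the beta subunit with the E-box shown above, had 55.7 and 61.5 in WT and 88.2 and 78.6 in transgenic mice (0.51, SE 0.10, adjusted p = 0.0490). The 2 subunits thus had folds of 1.49 and 1.42, and the difference between them was not tested. Of the exonic bases of Farsb, 9.47% are shared with Sgpp2 on the opposite strand, and whether the counting used strand is not given in the sources used here.

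Sars, the seryl enzyme, had 133 and 127 normalized CPM in WT and 169.7 and 182 in transgenic mice (log2 fold change 0.44, SE 0.09, adjusted p = 0.0462). Hars, the histidyl enzyme, had 58.4 and 53.5 in WT and 76.1 and 74.4 in transgenic mice (0.43, SE 0.08, adjusted p = 0.0462). In both the genotypes were separate, at 1.35 and 1.34 times WT, short of the fold threshold. Hars and the mitochondrial Hars2 lie head to head on chromosome 18 and share 195 exonic bases on opposite strands.

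Wars, the tryptophanyl enzyme and a gene known to respond to interferon, had 151 and 179 in WT and 218 in both transgenic samples (log2 fold change 0.40, SE 0.11, adjusted p = 0.0872). Its 2 WT samples differed more than its transgenic ones. Of 9 other interferon-induced genes tested, edgeR and DESeq2 each called 0 higher and 1 lower (Gbp2, in edgeR log2 fold change -1.23, adjusted p = 0.0212). Of all genes edgeR called 5.65% higher and 5.08% lower, and in a list of this size counts of 0 and 1 are near these shares. At an unadjusted p under 0.05 in edgeR, 0 of the 9 were higher, against 6024 of all 17643 genes in either direction. The median of that list was -0.34, and it rests on transgenic replicate 2, since without that sample it was 0.063 and without transgenic replicate 1 it was -1.48. The summed level was 196 and 174 normalized CPM in WT and 205 and 96.4 in transgenic mice.

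Aars, the alanyl enzyme, was the one row named for a cytosolic enzyme with both transgenic samples below both WT samples. It had 148 and 143 normalized CPM in WT and 128 and 126 in transgenic mice (log2 fold change -0.20, SE 0.08, adjusted p = 0.150). This direction depends on the scaling, since with library size alone the value was 0.022. Of the exonic bases of Aars, 15.1% are shared with Exosc6 on the same strand and Gm24103 on the opposite strand. The remaining cytosolic values were 0.30 for Nars and Cars, 0.27 for Gars, 0.20 for Tars, 0.09 for Yars and -0.08 for Tarsl2, with adjusted p from 0.129 (Nars) to 0.784 (Tarsl2). The 4 genes with an amino acid response motif in the window had values of -0.20 (Aars), 0.09 (Yars), 0.20 (Tars) and 0.40 (Iars).

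The mitochondrial synthetases charge the tRNAs that the mitochondrial genome encodes, for a handful of respiratory chain subunits. Of 17 genes, 3 rose and 1 fell, against 5.65% and 5.08% of all genes, so that the share that fell is near that of all genes. A log2 fold change above 0 was seen in 13 (50.9% of all genes), and the median was 0.35. Their summed level was 493 and 478 normalized CPM in WT and 520.4 and 493 in transgenic mice, a ratio of 1.04. Without the Vars2 row, whose locus is in doubt, the sum was 416 and 405 in WT and 481 and 453 in transgenic mice, a ratio of 1.14.

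Mars2, the mitochondrial methionyl enzyme (chr1:55237177-55248470), had the largest change among the called genes. It had 11.1 and 12.7 normalized CPM in WT and 26.4 and 21.0 in transgenic mice, a fold of 2.0 (log2 fold change 0.997, SE 0.18, adjusted p = 0.0406). Both transgenic samples lay far above WT but apart from each other, and without transgenic replicate 1 the value was 0.82 with an adjusted p of 0.0669. The raw counts behind it were 371 and 353 in the WT samples and 894 and 936 in the transgenic ones.

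Tars2, the mitochondrial threonyl enzyme (chr3:95739976-95760206), had 26.6 and 28.4 in WT and 45.6 and 51.1 in transgenic mice. It rose by 1.76 times (log2 fold change 0.81, SE 0.11, adjusted p = 0.0268) and stayed above the fold threshold, between 0.73 and 0.90, with any 1 sample left out. Wars2, the mitochondrial tryptophanyl enzyme (chr3:99141068-99239186), had 14.0 and 14.2 in WT, against 21.1 and 22.4 in transgenic mice. Its replicates were close, and its call (0.63, SE 0.13, adjusted p = 0.0484) was lost without transgenic replicate 1 (adjusted p = 0.0739) and without transgenic replicate 2 (log2 fold change 0.58, adjusted p = 0.0767). With the size factors of DESeq2 in edgeR it was lost as well (adjusted p = 0.0507).

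Yars2, the mitochondrial tyrosyl enzyme, was not called. It had 12.8 and 16.3 normalized CPM in WT and 25.4 and 25.7 in transgenic mice, a fold of 1.76 (log2 fold change 0.81, SE 0.17, adjusted p = 0.0505). Under DESeq2 and under both other filters on low counts it was called. Ears2, which charges glutamate onto 2 kinds of mitochondrial tRNA, had 18.2 and 17.0 in WT and 24.7 and 24.0 in transgenic mice (0.47, SE 0.12, adjusted p = 0.0737). Like Eprs, Ears2 keeps its place in the re-sorted table, and its genotypes did not overlap.

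Vars2 (chr17:35655634-35667592 in the annotation, with the doubt about this row given above) was the synthetase called lower. It had 77.6 and 72.4 normalized CPM in WT and 39.2 and 39.9 in transgenic mice, a fold of 0.527 (log2 fold change -0.92, SE 0.08, adjusted p = 0.0183). This was the lowest adjusted p of the 38, and with 1 sample left out the value stayed between -0.98 and -0.87. Iars2, the mitochondrial isoleucyl enzyme, had 128 and 122 in WT and 93.3 and 91.5 in transgenic mice (-0.43, SE 0.08, adjusted p = 0.0399). With library size alone the value of Iars2 was -0.21 (adjusted p = 0.123). In both genes the transgenic samples lay well below WT and close to each other. Of the exonic bases of Iars2, 24.2% are shared with Rab3gap2 and 2010103J01Rik on the opposite strand.

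The other mitochondrial genes did not pass. Lars2 had 18.6 and 20.5 in WT and 33.2 and 16.9 in transgenic mice, so that 1 transgenic sample lay above and the other below WT. Its log2 fold change was 0.36 (SE 0.35) and was -0.21 without transgenic replicate 1. Values for the rest ran from -0.06 (Fars2) to 0.53 (Pars2, the least abundant in counts of the mitochondrial genes), with adjusted p from 0.107 (Hars2) to 0.976 (Cars2).

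Set side by side, the members of a pair that serve the same amino acid often differed. In 10 of the 14 pairs both values were above 0. The mitochondrial value was the larger in 6 pairs, among them methionine (0.997 for Mars2, 0.14 for Mars), threonine (0.81 for Tars2, 0.20 for Tars) and tyrosine (0.81 for Yars2, 0.09 for Yars). The cytosolic value was the larger in 8, or in 7 of 13 without Vars and Vars2, whose rows are in doubt. Among them were arginine (0.66 for Rars, 0.19 for Rars2) and isoleucine, where Iars was at 0.40 and Iars2 at -0.43. These differences between genes are a description and were not tested.

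**Figure D4:**
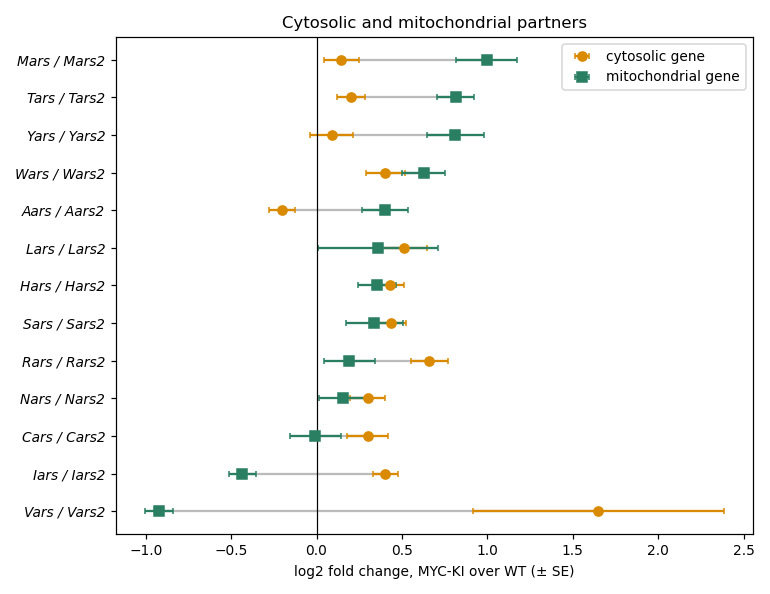
Log2 fold change (c-Myc transgenic over WT, with SE) of the cytosolic (circles) and mitochondrial (squares) synthetase gene for each of 13 amino acids, ordered by the mitochondrial value. Mars2, Tars2 and Yars2 lie well to the right of their cytosolic partners, and Iars2 lies below 0 while Iars lies above. The Vars2 row, also below 0, is of uncertain locus, and Cars2 lies at 0 within its SE.

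By structural class the 18 genes of class I had a median log2 fold change of 0.40 and the 19 of class II one of 0.34, with Eprs, which holds both, left out. The summed levels of both classes changed by the same ratio of 1.22. Of the 18 genes of class I, 4 rose and the Vars2 row, of doubtful locus, fell, and of the 19 of class II 2 rose, against 5.65% higher and 5.08% lower of all genes.

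The steps around charging were read from lists of other genes, as follows. Where these lists and that of the scaffold proteins, 71 genes in all, are given with 0 that fell, the tool was edgeR. DESeq2 also called 0 of them lower. At an unadjusted p under 0.05 in edgeR, 1 had a lower value (Hsd17b10, -0.38, adjusted p = 0.0435, under the fold threshold) and 37 a higher one. Of all 17643 genes, 6024 had such a p in either direction. Of 7 elongation factors that take up charged tRNA or recharge the carrier, 2 rose and 0 fell, against 5.65% and 5.08% of all genes, and the median was 0.58. In a list of this size a count of 0 that fell is near the share of all genes. Eef1b2 (log2 fold change 0.95, adjusted p = 0.0198) and Eef1g (0.88, adjusted p = 0.0200) rose, and both belong to the exchange factor that binds valyl-tRNA synthetase. Eef1a1, the carrier itself, had 4972 and 4989 normalized CPM in WT and 7097 and 7827 in transgenic mice (0.58, adjusted p = 0.0568).

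Of 25 genes for tRNA maturation and export, 5 rose and 0 fell (20% against 5.65% of all genes), with a median of 0.48. Of the 5 that rose, the 4 with the lowest adjusted p were Elac2, which trims the 3′ end (1.01, adjusted p = 0.0233), Rpp14, listed with RNase P (0.69, adjusted p = 0.0302), Trnt1, which adds the CCA end that synthetases charge (0.79, adjusted p = 0.0366), and Trmt10c, a subunit of mitochondrial RNase P (0.65, adjusted p = 0.0399). Of 24 genes of the RNA polymerase III machinery, which transcribes tRNA genes, 4 rose and 0 fell (16.7%), with a median of 0.34. Among these were Polr3b (0.71, adjusted p = 0.0289), Polr3e (0.76, adjusted p = 0.0340) and Polr3g (0.81, adjusted p = 0.0344). The tRNAs themselves are not analysed here.

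Of 4 trans-editing factors, which remove wrongly attached amino acids, Dtd1 rose (0.78, adjusted p = 0.0477) and 0 fell, against 5.65% and 5.08% of all genes. Of 8 enzymes that make or convert tRNA-bound amino acids, Sephs2, of selenocysteine synthesis, rose (0.77, adjusted p = 0.0294) and 0 fell. In lists of this size a count of 0 is near the share of all genes. The partners of Ears2 in making mitochondrial glutaminyl-tRNA, Qrsl1 (0.03), Gatb (-0.26) and Gatc (0.33), had adjusted p of 0.918, 0.423 and 0.144.

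The amino acid response list includes many ATF4 targets. Of its 23 genes 4 rose and 1 fell, against 5.65% and 5.08% of all genes, with a median of 0.15. Those that rose were Shmt2 (1.37, adjusted p = 0.0168), Psat1 (1.19, adjusted p = 0.0253), Phgdh (1.16, adjusted p = 0.0304) and Aldh18a1 (0.76, adjusted p = 0.0472), which make serine, glycine and proline precursors. Chac1, which breaks down glutathione, was the one that fell (-1.31, adjusted p = 0.0471). Atf4 itself had 164 and 157 normalized CPM in WT and 179.6 and 152 in transgenic mice, which overlap (0.05, adjusted p = 0.813), and Asns, asparagine synthetase, was at -0.38 (adjusted p = 0.0870).

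Cell type markers moved with genotype as well, and their part in the synthetase results was not tested. For the counts of markers that follow, edgeR called 5.65% of all genes higher and 5.08% lower. All 6 parietal cell markers fell, from a summed level of 10650 and 10792 normalized CPM in WT to 258 and 308 in transgenic mice. Of 5 chief cell markers tested 4 fell (84853 and 80511 to 1198 and 1518 summed). Of 6 surface and neck mucous markers 4 fell (Muc5ac, Tff1, Gkn1 and Gkn2), while Muc6 (0.13) and Tff2 (0.53) overlapped between the genotypes. Of 6 proliferation markers 1 rose (median 0.71), while DESeq2 called 3 higher. All 6 had higher values in both transgenic samples than in both WT samples (33.3% of all genes). All 6 also had an unadjusted p under 0.05 in edgeR, against 6024 of all 17643 genes in either direction. Of 16 pancreatic acinar markers, 9 were tested and 5 fell. In edgeR 7 of the 9 had lower values at an unadjusted p under 0.05. Ctrl went the other way at such a p (log2 fold change 2.95, adjusted p = 0.0892), on only 1 to 25 counts per sample. Pnlip, which was not tested, was also higher in both transgenic samples (18 and 7 counts, against 1 and 0). Those that fell include Clps, with 145 and 119 in WT and 1.15 and 0.761 in transgenic mice, Cela1, with 247 and 211 against 124 and 145, and Rnase1, with 10.8 and 12.0 against 0.708 and 1.68. Defining ones (Cpa1, Prss2, Try4 and Amy2a5) had 0 counts in all samples, and of the summed level of 10222 and 8961 in WT, 9805 and 8607 were the single gene Pla2g1b. The fat markers Adipoq (13.7 and 55.8 in WT, 0 and 1.79 in transgenic mice) and Plin1 (13.3 and 36.8, against 0.0295 and 1.25) were low in both transgenic samples. In edgeR their adjusted p was 0.107 and 0.0764, and DESeq2 called Plin1 lower. Of 6 leukocyte markers 2 fell (Lyz2 and Adgre1), and of 10 squamous markers 1 rose (Anxa8). The other squamous markers were not called, and all of them but Krt14 overlapped between the genotypes. Of 6 smooth muscle markers, 0 were called by edgeR or DESeq2 and 0 had an unadjusted p under 0.05. In lists of this size counts of 0 and 1 called are near the share of all genes.

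**Figure D5:**
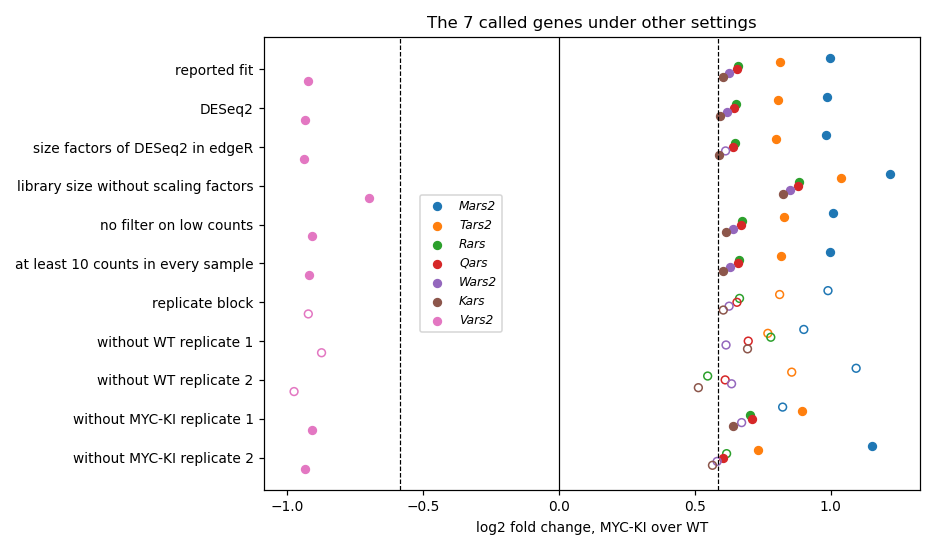
Log2 fold change (c-Myc transgenic over WT) of the 7 called synthetase genes under the reported fit and 10 other settings of the re-sorted table, with filled symbols where the adjusted p was under 0.05 and dashed lines at the fold threshold of 1.5 times. All 7 genes kept their direction, and 0 were filled with the replicate block or with either WT sample left out.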

How the data were processed

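Gastric RNA of 4 mice was sequenced. Per the labels, reads were aligned with HISAT2 to mm10; the counting tool and the annotation are not given in the sources used here. The authors deposited 1 table of raw counts per gene symbol, not normalized, and used DESeq2 for their own comparison. Members and gene lists were chosen with earlier results of these data known. The transgenic counts were assigned to the names sorted by character code, as the member rule states. The test was the quasi-likelihood F-test of edgeR 4.0.16, run in R 4.3.3 with TMM, filterByExpr, glmQLFit and glmQLFTest, no covariates and Benjamini-Hochberg adjustment over all genes tested. Dividing each log2 fold change, without its sign, by the root of its F statistic gave the SE. Synthetases with values in every sample are those called, or not overlapping with an adjusted p under 0.1, and Aars, Dars and Lars2, chosen after their values were seen; at most 4 called genes of each other list are named, or any of a list of up to 8, and other named genes were chosen after their values were seen. Alternatives were DESeq2 1.42.0, its size factors in edgeR, library size, 2 other filters (1 count in total, 10 in every sample), the replicate block, other fold thresholds, leaving out each sample, and the table as deposited. With 1 sample left out, the lone sample of a genotype is assumed to vary like the others. The tests were checked on simulated counts. Single values of some items, 1 synthetase gene among them, are not reported here, but counts and medians include them.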

Additional observations from a re-analysis of the deposited data

How the results depend on the processing

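Size factors of DESeq2 in edgeR lost the call of Wars2. All 7 called genes kept their direction under each alternative of the re-sorted table. DESeq2 called 7 synthetases higher and 1 lower, with 1502 and 1730 of all genes. Library size alone called 17 synthetases (median 0.60) and 2272 of all genes higher, and turned Aars (0.022), Cars2 (0.22), Fars2 (0.16) and Tarsl2 (0.15) above 0. Without a fold threshold 12 and 2 synthetases passed. Above a log2 fold change of 1, edgeR called 0 and 0 synthetases, against 464 and 649 of all genes. At an unadjusted p under 0.05 in edgeR, 19 synthetases were higher and 2 lower, against 6024 of all genes in either direction. The labels do not say whether samples with the same replicate number share more than that number. The difference of replicate 1 and 2 correlated across genes by 0.067 between genotypes. With a single difference per genotype, that value cannot show whether they shared a litter or day. With the replicate block 0 and 0 synthetases were called in edgeR (27 and 87 of all genes), against 6 and 1 without it. In the blocked fit 18 synthetases had an unadjusted p under 0.05 (5178 of all genes), and the median was 0.38 in both fits. DESeq2 was not run with the block. Leaving out each sample gave 0 to 6 synthetases higher and 0 to 1 lower, 0 to 1064 and 0 to 1406 of all genes, and turned Cars2 (-0.12 to 0.11), Lars2 (-0.21 to 0.77) and Tarsl2 (-0.21 to 0.069). Without filter Cars2 was at 0.0055.

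As deposited, 6 synthetases were called higher and 22 lower, among 9422 and 9158 of all genes, and their median was -1.26; the pairing of names and counts is what differs. Against the re-sorted table the sign turned for 22 of the 37 genes given one by one. Genes at 0 in both transgenic columns have fitted values that depend on the prior count: Kars (-14.66), Lars (-14.19), Lars2 (-12.38), Wars2 (-11.91) and Vars (-8.62). The others were Rars2 (-8.00), Hars2 (-7.13), Pars2 (-6.38), Aars2 (-6.30), Sars (-5.30), Farsb (-3.22), Rars (-2.42), Nars (-2.18), Wars (-1.88), Qars (-1.43), Dars (-1.06), Hars (-0.80), Tars (-0.75), Gars (-0.15), Iars (-0.13), Fars2 (0.53) and Tarsl2 (1.04).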
